A study of Homo sapiens with 42 samples.

Results

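The cytosolic ribosomal protein genes measured here were 64 of the 18417 genes with a probe set of their own on the array. They were chosen by symbol (RPL or RPS with a number, RPLP1 and RPLP2 of the stalk, and named copies such as RPL26L1), and where a gene had several probe sets, the one with the highest mean over all arrays stood for it. The cells were HL-60, an established MYC-amplified human acute myeloid leukemia line, in 14 groups of 3 arrays (42 Affymetrix Human Gene ST arrays in all), and the study calls the 3 arrays biological triplicates. The inhibitor experiment had 18 arrays: untreated cells, cells with 10 µM GSK-343 (GSK343 in the labels), an EZH2 inhibitor, and cells with 2.5 µM HKMTI-1-005, an inhibitor of both EZH2 and EHMT2, another histone methyltransferase, each without and with 0.1 µM ATRA, the retinoid that drives HL-60 cells toward granulocytes, for 3 days. The knockdown experiment had 24 arrays: wild-type cells, taken as untransduced, and cells transduced with a non-targeting shRNA, shEZH2#1 or shEZH2#2, each without and with the same dose of ATRA. Transduced cells had been selected with puromycin, so that comparisons with the wild type also contain transduction and selection. EZH2 KD stands for the average of both hairpins.

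A ribosome is built from ribosomal RNA and a fixed set of proteins, named RPL for the large subunit and RPS for the small subunit. These proteins are for the most part needed in equal amounts. Their mRNAs are among the most abundant of dividing cells and mostly begin with a C followed by a run of pyrimidines, the 5′ terminal oligopyrimidine (TOP) tract, through which mTORC1 and LARP1 regulate their translation together. MYC raises the transcription of ribosomal protein genes, and the demand for new ribosomes falls when cells stop dividing. A few genes have a diverged copy, such as RPL26L1 or RPL22L1, and many have processed pseudogenes with nearly the same sequence, so that a probe set can pick up more than the gene it is named for.

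Of 77 core genes listed for the ribosome, 57 were measured, 34 of the large subunit, 2 of the stalk and 21 of the small subunit, and the other 7 of the 64 were paralogs. The 20 core genes without a probe set of their own, among them RPLP0, RPSA and RPS27A, were not analysed here, and 11 of these lay only on probe sets that carry other symbols too. The array values were log2 levels, with a median of 5.40 over all probe sets, and the means of the 57 core genes lay between 7.77 and 13.79. A gene could be called changed only if its mean was in the top 40% (7367 genes, from 6.88 upward), which held 60 of the 64. The 4 below that line were the paralogs RPL10L (mean 4.87), RPL3L (5.41), RPS27L (6.17) and RPL22L1 (6.67). Myeloid markers of HL-60 such as MPO (12.95) and PRTN3 (9.93) were high, while B-cell, T-cell and erythroid markers lay between 4.21 and 5.12.

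The starts of these genes are shown because the pyrimidine run is the feature they share, and the choice of members did not use it. RefSeq (GRCh38.p14) gave start sequences for 53 of the 64 genes. An unbroken run of 8 or more C or T within 5 bases of an annotated start was found in 39 of 48 core genes (81.2%) and in 14.1% of all 27305 genes. The median longest run was 12 bases in the core genes, 4 in all genes and 2 in the 5 paralogs, of which RPL22L1 alone had a run of 8 or more. C was the first base in 39 of 48 core genes and in 18.0% of all genes. Each window below covers 20 bases before the annotated start and the first 10 bases of the transcript, on the strand of the gene and 5′ to 3′. Capitals mark the run, which can go on beyond the window, and where a gene has several starts the one with the longest run is given.
Genes lower with ATRA in the inhibitor experiment, with runs of 16, 10, 12 and 25 bases:
RPS24, chr10:78033843-78033872, plus strand: ttggccggcgaatcgtggTTCTCTTTTCCT
RPL13, chr16:89560662-89560691, plus strand: gtgcattgcggggccgCTTCCTTTCCgctc
RPL11, chr1:23691786-23691815, plus strand: tcggccggaagctccgCTTTCTCTTCCTgc
RPL7A, chr9:133348198-133348227, plus strand: attacccacaaTTCCCTTTCCTTTCTCTCT
Genes that differed with the non-targeting shRNA, with runs of 10, 12, 15, 18, 9 and 2 bases:
RPS13, chr11:17077658-17077687, minus strand: ggcgtttccactctcgCTCTCCTTTCgttg
RPS23, chr5:82278345-82278374, minus strand: ctccttcctgcggtgCTTCTCTCTTTCgct
RPS21, chr20:62387083-62387112, plus strand: tgccgggtgactagctgCTTCCTTTCTCTC
RPL34, chr4:108620556-108620585, plus strand: ctggcaaaggCTTTTTTCTTCCTCTTCCgg
RPS28, chr19:8321476-8321505, plus strand: ggctctccccgaagcacgtgaCTCCTCTCC
RPS15, chr19:1438376-1438405, plus strand: ataactgcgcaggcgcggaCCaaagcgatc
Core genes beside their diverged copies, and the lone copy RPL7L1, with runs of 14, 3, 11, 10, 9, 2 and 2 bases:
RPL26, chr17:8383184-8383213, minus strand: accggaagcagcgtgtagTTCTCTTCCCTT
RPL26L1, chr5:172958860-172958889, plus strand: agaggggcggggcggcggccacaaaCCCgc
RPL22, chr1:6199586-6199615, minus strand: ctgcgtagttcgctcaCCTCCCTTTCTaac
RPL22L1, chr3:170870186-170870215, minus strand: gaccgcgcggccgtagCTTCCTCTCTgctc
RPS27, chr1:153990742-153990771, plus strand: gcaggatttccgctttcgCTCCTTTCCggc
RPS27L, chr15:63157468-63157497, minus strand: cccggaagttgatgCCgagcgcagatcgct
RPL7L1, chr6:42879596-42879625, plus strand: cgcgccggaagtgcggcgCCgtagctagga
RPS24, RPL7A and RPL34 carry long tracts, and RPS15 and the copies RPL26L1, RPS27L and RPL7L1 have almost none at the annotated start. In the window from 250 bases before to 50 bases after the start, on either strand, the letters CCGGAAGT, which ETS factors bind, were found in 8 of 48 core genes (16.7%) and 4.95% of all genes. The TATA box letters TATAAA were found in 4 of 48 core genes (8.3%) and 14.0% of all genes, and the E-box letters CACGTG, which MYC binds, in 3 of 48 (6.2%) and 8.77%. These matches describe the sequence and are no evidence of binding.

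Across all 14 groups the levels of the ribosomal protein genes varied by small amounts. The difference between the highest and lowest group mean of a gene had a median of 0.35 on the log2 scale over the 60 callable genes, from 0.11 for RPL5, which with RPL11 binds MDM2 outside the ribosome, to 0.93 for RPL39L. The SD within groups had a median of 0.12 for these 60 genes and 0.19 for all 7367 expressed genes, not matched for level. It was lowest for RPL35A (0.052) and highest for RPL39L (0.33), the diverged copy of RPL39 known from testis, RPL32 (0.28) and RPL36 (0.22). In 19 comparisons of groups, 13 calls were made among 1140 tests of these genes (limma, adjusted p of 0.05 or less and a change of at least 1.3-fold), and they fell on 10 genes. The other 50 were never called, and 39 of the 60 did not reach an adjusted p of 0.05 in any comparison. Shares of expressed genes are given below for single comparisons. No share over all 19 together, and no span of group means for expressed genes, was computed. These totals therefore do not show whether the 60 genes were steadier than other genes. The mean level of the 60 genes per array ran from 11.59 to 11.93, with a pooled SD within groups of 0.050. It was 11.79 ± 0.036 (SD, n = 3) in untreated cells, 11.68 ± 0.034 with ATRA, 11.87 ± 0.052 with GSK-343 and 11.77 ± 0.063 with HKMTI-1-005. With ATRA added it was 11.75 ± 0.039 for GSK-343 and 11.74 ± 0.025 for HKMTI-1-005. The widest spread was in the non-targeting group without ATRA, 11.73 ± 0.11, and the narrowest in untransduced cells, 11.84 ± 0.0063. In bulk RNA, fewer cells of a type and less RNA per cell cannot be told apart.

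**Figure D1:**
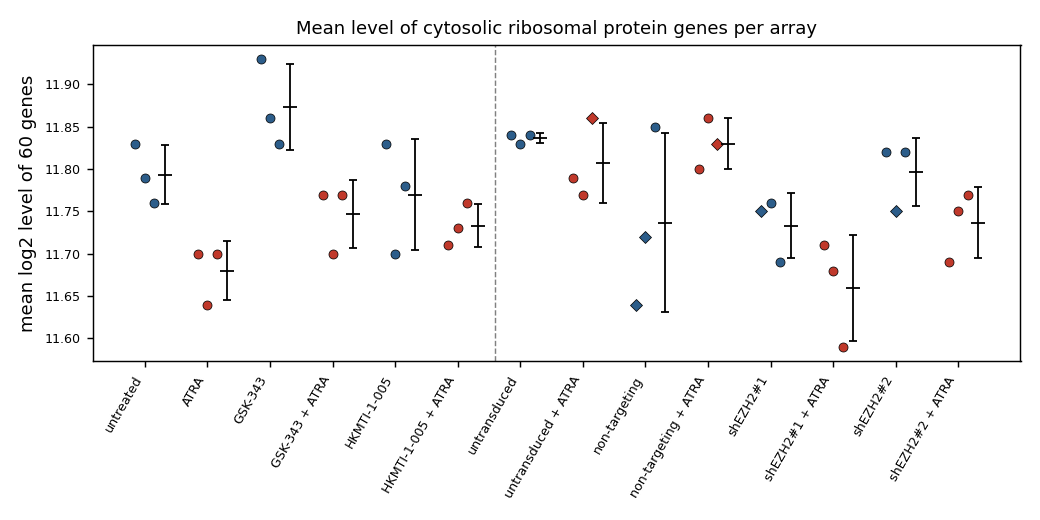
Mean log2 level of the 60 callable ribosomal protein genes on each array, by group (blue without ATRA, red with ATRA; bars are mean ± SD of 3 arrays; diamonds are the 6 knockdown arrays with the highest array median; the dashed line separates the inhibitor experiment, left, from the knockdown experiment). The ATRA arrays of the inhibitor experiment (11.64 to 11.70) lie below the untreated arrays (11.76 to 11.83), and 2 of 3 non-targeting arrays lie low.

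ATRA, the stimulus for differentiation, was accompanied in the inhibitor experiment by lower levels of a few ribosomal protein genes. RPS24, a small-subunit protein that is mutated in some patients with Diamond-Blackfan anemia, and RPL13, a large-subunit protein, fell, and 0 rose. That is 2 of 60 genes lower, where 7.85% of all expressed genes were called lower and 13.1% were called at all. RPS24 stood at 12.32, 12.39 and 11.94 in the untreated arrays and at 11.44, 11.28 and 12.02 with ATRA. The third ATRA array lay above the third untreated array, so that the groups overlapped. The difference was -0.64 (SE 0.15, adjusted p = 0.0051), a fall of 1.55-fold. RPL13 stood at 10.94, 10.86 and 10.66 without and at 10.49, 10.35 and 10.46 with ATRA, with no overlap (-0.385, SE 0.11, adjusted p = 0.031). In a fit over all probe sets, the next brightest of RPL13 gave -0.39 (adjusted p = 0.024) and the dimmest -0.31 (adjusted p = 0.62). The mean of all 3 differed by less than 1.3-fold (-0.36), which ended the call.

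RPL11 fell by less than 1.3-fold, but with little spread. Its levels were 12.93, 12.91 and 12.72 in untreated arrays and 12.61, 12.47 and 12.66 with ATRA (-0.27, SE 0.058, adjusted p = 0.0019). The lowest untreated array was above the highest ATRA array. RPL37A (-0.37), RPL7A (-0.36, 11.97, 11.97 and 11.76 against 11.50, 11.55 and 11.58) and RPL27A (-0.23) also passed the adjusted p alone (0.021, 0.015 and 0.040), all 3 proteins of the large subunit. RPL7A was read from a single probe set here and below. Other probe sets that name RPL7A also carry symbols of small nucleolar RNAs and were left out. Whether the one used reads RPL7A or a near-identical copy elsewhere in the genome was not tested. In all, 6 of 60 genes passed on p alone in this comparison, each of them lower, where 8.73% of expressed genes did so in that direction. The median difference of the 60 genes was -0.092, beside -0.048 for all expressed genes, with -0.085 for the large subunit and stalk and -0.058 for the small subunit. Groups did not overlap in the lower direction for 15 of the 60, where 24.9% of expressed genes had that pattern. For 41 of 60 genes (68.3%) the 95% interval of the difference lay within 1.3-fold, against 23.4% of expressed genes. The expressed genes were not matched to these 60 for level, so that this does not show that the 60 changed less.

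The calls rested on few arrays. RPS24 was not called without ATRA array 1 (-0.56), ATRA array 2 (-0.49) or untreated array 2 (-0.55). RPL13 was called only with all 6 arrays or without untreated array 3, and its value without 1 array ran from -0.32 to -0.41 where the call was lost. Without untreated array 3, 4 members were called. Here and below, no share of expressed genes was computed for refits without some arrays.

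**Figure D2:**
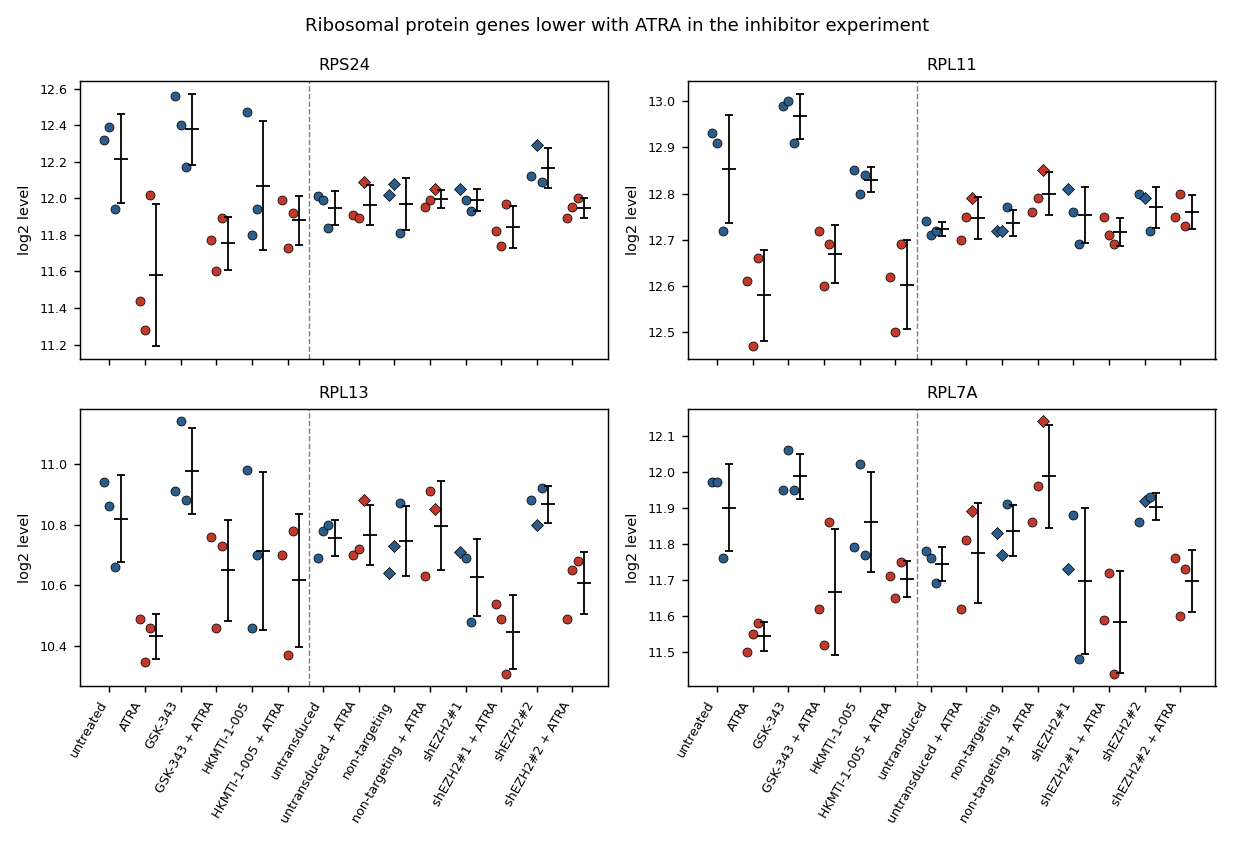
Log2 level of RPS24, RPL11, RPL13 and RPL7A on each array (blue without ATRA, red with ATRA; bars are mean ± SD of 3 arrays; diamonds are the 6 knockdown arrays with the highest array median; each panel has its own axis, which does not start at 0). In the inhibitor experiment, left of the dashed line, RPL11 is lower with ATRA in all 3 settings, and in untransduced cells, the first 2 groups right of the line, its means are 12.73 without and 12.75 with ATRA.

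The same comparison was made on the background of each inhibitor. With GSK-343 and ATRA against GSK-343 alone, 2 of 60 genes fell and 0 rose, where 7.06% of expressed genes were called lower. RPS24 was at 12.56, 12.40 and 12.17 with GSK-343 and at 11.77, 11.60 and 11.89 with the combination, without overlap (-0.62, SE 0.15, adjusted p = 0.0072). RPL26L1 fell from 9.76, 9.54 and 9.53 to 9.14, 9.01 and 9.39 on its brighter probe set (-0.43, SE 0.10, adjusted p = 0.0065), a call that was lost with the mean of its 2 probe sets (-0.32, adjusted p = 0.088). RPL11 again passed on p alone (-0.30, SE 0.058, adjusted p = 0.0011), as did RPL7A (-0.32, adjusted p = 0.035) and RPL29 (-0.29, adjusted p = 0.046), whose dimmer probe set fell by 0.61, where 7.6% of expressed genes passed on p alone in that direction. The median difference of the 60 genes was -0.13, beside -0.067 for expressed genes, and 6 of 60 had a difference above 0. Both calls were lost without GSK-343 array 1 (RPS24 -0.53, RPL26L1 -0.36) and without combination array 2 (-0.55 and -0.35).

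With HKMTI-1-005 and ATRA against HKMTI-1-005 alone, limma called 0 of 60 genes, where 4.05% of expressed genes were called. No share of expressed genes at an unadjusted p under 0.05 was computed in any comparison. At that threshold 2 of the 60 genes passed here, and the methods' t-test called 0. RPL11 was one of the 2 and alone passed on the adjusted p, where 1.76% of expressed genes did so in that direction, with 12.85, 12.80 and 12.84 without and 12.62, 12.50 and 12.69 with ATRA (-0.23, SE 0.058, adjusted p = 0.019). RPS24 had a value of -0.19 (SE 0.15, adjusted p = 0.75). The difference between the ATRA responses with and without HKMTI-1-005 was 0.45 for RPS24 (SE 0.21, adjusted p = 1.00 and unadjusted p = 0.041). That between the responses with and without GSK-343 was 0.013 (SE 0.21). In these 2 interaction terms limma called 0 of 60 genes and 0% of expressed genes, with 1 gene and 2 genes at an unadjusted p under 0.05. RPL11 thus passed on the adjusted p in each of the 3 ATRA comparisons of the inhibitor experiment, but with HKMTI-1-005 it did not with 1 fit per experiment (adjusted p = 0.080) or with centring (0.145, value -0.21). It was also lost there without HKMTI-1-005 array 1 (-0.22) or array 3 (-0.22), or without combination array 1 (-0.24) or array 2 (-0.18).

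In untransduced cells of the knockdown experiment no ribosomal protein gene was called with the same dose of ATRA. Limma called 0 of 60 genes, where it called 2.13% of expressed genes. Of the 60, 0 had an unadjusted p under 0.05, and the methods' t-test called 0. RPS24 was at 12.01, 11.99 and 11.84 without and 11.91, 11.89 and 12.09 with ATRA, a difference of 0.015 (95% interval -0.29 to 0.32). RPL11 differed by 0.024 (interval -0.093 to 0.14) and RPL13 by 0.0097 (-0.22 to 0.24). For 50 of 60 genes the 95% interval lay within 1.3-fold. The ATRA response of the inhibitor experiment minus that of untransduced cells was -0.65 for RPS24 (SE 0.21, adjusted p = 0.41) and -0.30 for RPL11 (SE 0.081, adjusted p = 0.29). Limma called 0 of 60 genes in that term, with 7 at an unadjusted p under 0.05 and 0% of expressed genes called, and 1 called without ATRA array 3 of the inhibitor experiment. MYC moved alongside: it fell by 1.35 with ATRA in the inhibitor experiment (SE 0.29, adjusted p = 0.0027) and differed by -0.28 in untransduced cells (SE 0.29, adjusted p = 0.83). Its part in the levels of the ribosomal protein genes was not tested.

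In cells with the hairpins, limma called 0 of 60 genes with ATRA for shEZH2#1 (8.65% of expressed genes called) and 0 for shEZH2#2 (8.36%). At an unadjusted p under 0.05 there were 5 genes for each hairpin, all lower, and the methods' t-test called 0. RPL12, a protein at the base of the stalk, was at 13.21, 13.12 and 13.03 with shEZH2#1 and 12.86, 12.89 and 12.88 with ATRA added (-0.24, SE 0.063, adjusted p = 0.018), a change under 1.3-fold and the only one of the 60 to pass on p alone, where 4.15% of expressed genes did so in that direction. The largest value was that of RPL39L, -0.75 with shEZH2#1 (SE 0.26, adjusted p = 0.093) and -0.51 with shEZH2#2 (SE 0.26, adjusted p = 0.36). The median difference of the 60 genes was -0.060 and -0.063 for the 2 hairpins. Without shEZH2#1 array 3, 1 member was called for that hairpin.

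With the non-targeting shRNA the direction was the opposite: RPL34 and RPS21 rose with ATRA, 2 of 60 genes higher where 3.77% of expressed genes were called higher. RPL34, a large-subunit protein, was at 12.84, 12.97 and 13.60 without and 13.61, 13.56 and 13.57 with ATRA (0.45, SE 0.12, adjusted p = 0.039). RPS21, of the small subunit, was at 7.93, 8.09 and 8.46 without and 8.49, 8.55 and 8.58 with ATRA (0.38, SE 0.10, adjusted p = 0.031). In both genes the first 2 arrays without ATRA were low, and the third stood at or near the ATRA level. These 2 arrays were among the 6 knockdown arrays with the highest array medians (5.47 to 5.56, against 5.31 to 5.44 for the others). Without those 6 arrays, which leaves non-targeting array 3 alone in its group, the values were -0.012 for RPL34 and 0.062 for RPS21. Limma called 0 genes there, on the assumption that the lone array varies like the other groups. Leaving out either low array, or any ATRA array, also ended both calls (RPL34 0.30 to 0.46, RPS21 0.27 to 0.40). Without non-targeting array 3 there were 11 calls, with no share of expressed genes to set beside them. The ATRA response with the non-targeting shRNA minus that in untransduced cells was 0.51 for RPL34 (SE 0.17, adjusted p = 0.52) and 0.53 for RPS21 (SE 0.14, adjusted p = 0.48). Limma called 0 of 60 genes in that term, where 0% of expressed genes were called, with 13 at an unadjusted p under 0.05 and 11 called without non-targeting array 3.

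**Figure D3:**
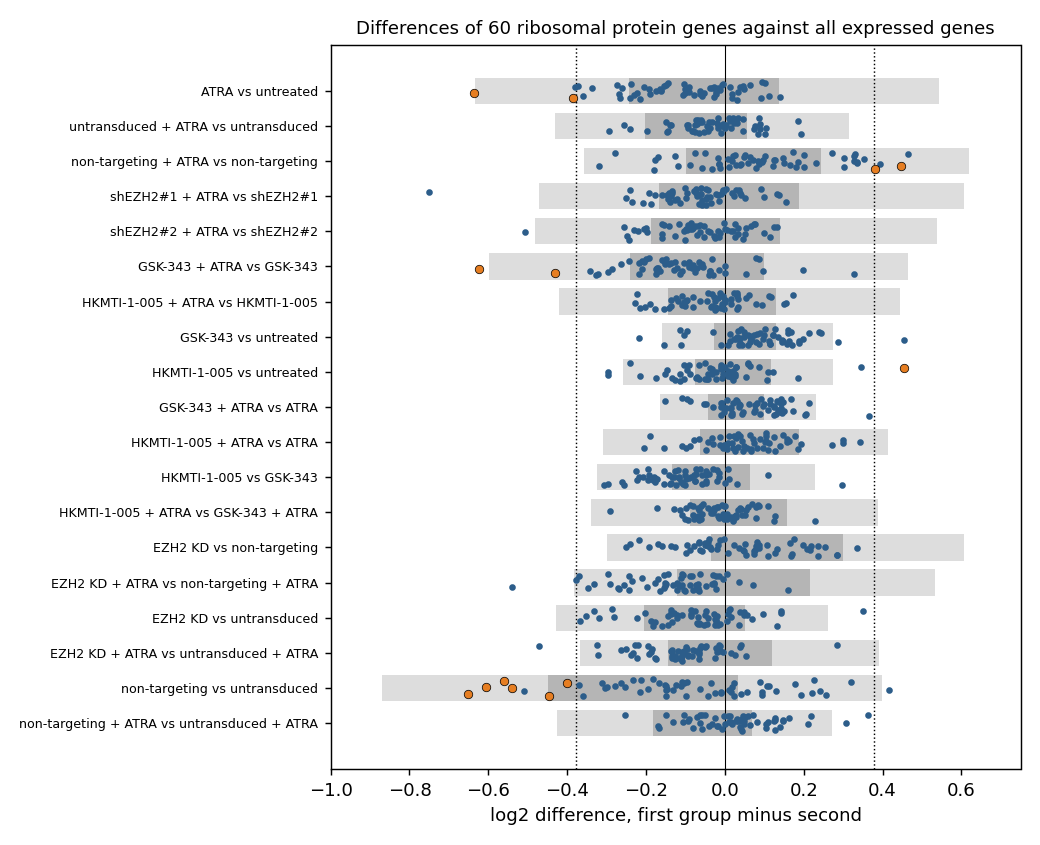
Log2 difference of each of the 60 callable ribosomal protein genes in the 19 comparisons (first group minus second; orange points are called genes, blue points are not; dark and light grey bars span the middle 50% and 90% of the 7367 expressed genes; dotted lines mark 1.3-fold). Most points lie within 1.3-fold in every comparison, and for the non-targeting shRNA against untransduced cells, with 6 calls, the grey bars are shifted below 0 as well.

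No core ribosomal protein gene was called with either inhibitor alone. With GSK-343 against untreated cells, limma called 0 of 60 genes, where it called 0.0136% of expressed genes. Of the 60, 5 had an unadjusted p under 0.05, and the methods' t-test called 0. The differences were small but mostly above 0, in 52 of 60 genes, with a median of 0.080 beside 0.050 for expressed genes. Groups did not overlap in the higher direction for 15 of 60 genes, where 11.7% of expressed genes had that pattern. With HKMTI-1-005 against untreated cells, 24 of 60 differences were above 0, with a median of -0.016, and the only call was RPL26L1, 1 of 60 genes higher where 0.0407% of expressed genes were called higher.

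RPL26L1 encodes a protein that differs little from RPL26, a large-subunit protein that is also known to promote p53 translation. On its brighter probe set it stood at 9.33, 9.06 and 9.07 in untreated cells and at 9.76, 9.60 and 9.47 with HKMTI-1-005, all 3 above the highest untreated array (0.45, SE 0.10, adjusted p = 0.041). With GSK-343 it stood at 9.76, 9.54 and 9.53, also without overlap (0.45, SE 0.10, adjusted p = 0.098). Both comparisons share the untreated arrays. HKMTI-1-005 minus GSK-343, given at different doses, was -0.00078 (95% interval -0.21 to 0.21). With the replicate number as a block, taken here to pair these samples, the HKMTI-1-005 value had an adjusted p of 0.0501 and the call was lost. The call also ended when any array of the comparison other than untreated array 1 was left out (0.38 to 0.53). The dimmer probe set of RPL26L1 (mean 6.65, against 9.34 for the brighter) gave 0.28 with HKMTI-1-005 (SE 0.17, adjusted p = 1.00) and 0.19 with GSK-343 (SE 0.17, adjusted p = 1.00). RPL26 itself was at 12.06, 11.95 and 12.27 in untreated cells and 11.96, 12.03 and 11.97 with HKMTI-1-005 (-0.10, SE 0.098, adjusted p = 1.00). On the dimmer probe set too the 3 arrays with HKMTI-1-005 (6.98, 6.84 and 6.66) lay above the untreated arrays (6.61, 6.58 and 6.44), but those with GSK-343 (6.98, 6.38 and 6.84) overlapped them. With the mean of both probe sets the HKMTI-1-005 value was 0.37 (adjusted p = 0.33). Whether the brighter probe set reads RPL26L1 or a near-identical copy elsewhere in the genome was not tested, so the call may not be that of RPL26L1. With EZH2 KD the brighter probe set differed by 0.20 from the non-targeting shRNA (SE 0.088, adjusted p = 0.20) and 0.050 from untransduced cells.

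**Figure D4:**
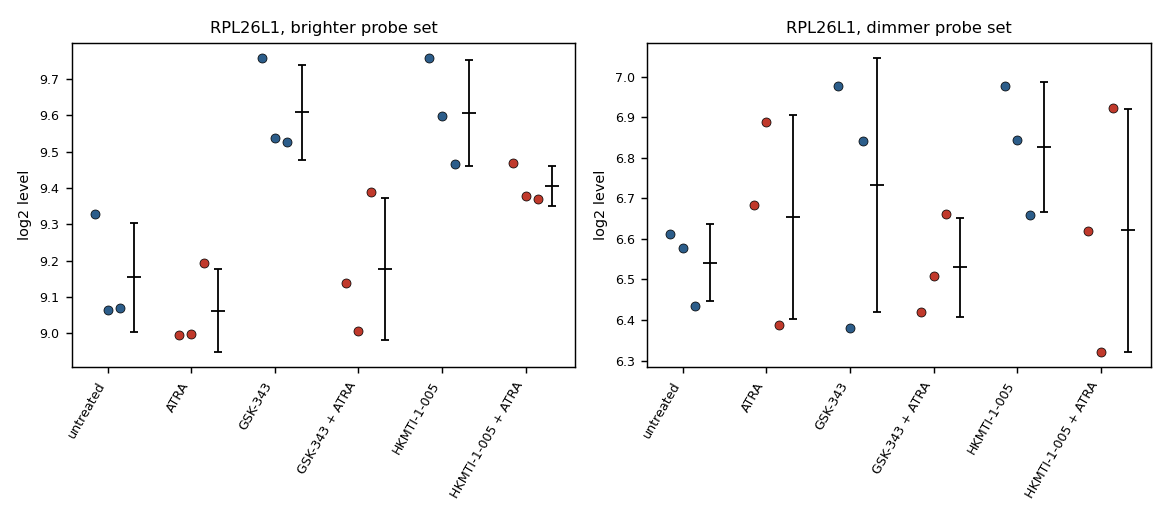
Log2 level of both RPL26L1 probe sets in the inhibitor experiment (blue without ATRA, red with ATRA; bars are mean ± SD of 3 arrays; the 2 panels have different axes, which do not start at 0). On the brighter probe set all arrays with an inhibitor alone (9.47 to 9.76) lie above the untreated arrays (9.06 to 9.33), and on the dimmer probe set those with HKMTI-1-005 (6.66 to 6.98) do so too (untreated 6.44 to 6.61), while those with GSK-343 overlap the untreated arrays.

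In the presence of ATRA, limma called 0 of 60 genes for either inhibitor against ATRA alone, where 0.0136% (GSK-343) and 0.76% (HKMTI-1-005) of expressed genes were called, and the methods' t-test called 0. At an unadjusted p under 0.05 there were 2 genes with GSK-343 and 3 with HKMTI-1-005. RPL26L1 had the largest difference with HKMTI-1-005 and ATRA (0.34, SE 0.10, adjusted p = 0.13), and its value with GSK-343 and ATRA was 0.12. Between the inhibitors, limma called 0 of 60 genes without ATRA and 0 with ATRA (0.394% and 1.07% of expressed genes called), with 11 and 2 genes at an unadjusted p under 0.05 and 0 by the methods' t-test. Without ATRA, 55 of 60 differences were below 0 for HKMTI-1-005 against GSK-343, with a median of -0.10 beside -0.029 for expressed genes, and the lowest value was that of RPS24 (-0.31, SE 0.15, adjusted p = 0.80).

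The knockdown asked the same question by targeting EZH2 itself. EZH2 mRNA stood at 9.28 on average with the 2 hairpins and at 10.36 with the non-targeting shRNA (-1.08, SE 0.13, adjusted p = 1.719e-05). Against untransduced cells, at 10.02, the fall was smaller (-0.74, SE 0.13, adjusted p = 0.0048 in limma). The non-targeting mean lay 0.34 above the untransduced mean (SE 0.15, adjusted p = 0.14 in limma). Limma called 0 of 60 ribosomal protein genes for EZH2 KD against the non-targeting shRNA, where 6.12% of expressed genes were called, with 10 at an unadjusted p under 0.05 and 0 by the methods' t-test. The largest difference was in RPS13, 0.33 (SE 0.12, adjusted p = 0.10). Without non-targeting array 3, which stood apart from its 2 fellows, 7 members were called, and without shEZH2#2 array 2, 2 were. These counts have no share of expressed genes beside them. The median over the 60 genes was 0.030, beside 0.13 for expressed genes, and turned to -0.079 without the 6 arrays of highest median, against the single non-targeting array 3. Against untransduced cells limma called 0 of 60 (0.407% of expressed genes called), with 13 genes at an unadjusted p under 0.05, all of them lower, and 0 by the methods' t-test. The median difference there was -0.064, beside -0.078 for expressed genes.

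With ATRA, no ribosomal protein gene was called between EZH2 KD and non-targeting cells. Differences were below 0 in 56 of 60 genes, with a median of -0.11 beside 0.044 for expressed genes. Limma called 0 (5.38% of expressed genes called), and the methods' t-test called 0. At an unadjusted p under 0.05 there were 18 genes, all lower, a count with no share of expressed genes to set beside it. RPL7A passed on p alone, at 11.86, 11.96 and 12.14 with the non-targeting shRNA, 11.59, 11.72 and 11.44 with shEZH2#1 and 11.76, 11.60 and 11.73 with shEZH2#2 (-0.35, SE 0.083, adjusted p = 0.014). All 6 knockdown arrays lay below the 3 controls on this probe set, which may not read RPL7A alone. RPL37A (-0.33, SE 0.091, adjusted p = 0.034) and RPL27 (-0.37, SE 0.10, adjusted p = 0.040) also passed on p alone, where 2.65% of expressed genes did so in that direction. Without 1 array, up to 2 members were called: 2 without non-targeting ATRA array 1, and 1 each without non-targeting ATRA array 2, shEZH2#1 ATRA array 1 or shEZH2#1 ATRA array 2. With shEZH2#1 alone there were 2 calls, and with shEZH2#2 alone 0. Against untransduced cells with ATRA, 54 of 60 differences were below 0 (median -0.11, beside -0.017 for expressed genes). There limma called 0 (3.28% of expressed genes called), with 17 genes at an unadjusted p under 0.05, 0 by the methods' t-test and 1 without untransduced ATRA array 1. RPS16, of the small subunit, passed on p alone (-0.26, SE 0.072, adjusted p = 0.048), where 1.95% of expressed genes did so in that direction. Both comparisons share the knockdown arrays.

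The comparison with the most calls was between 2 controls, the non-targeting shRNA and untransduced cells, and it shares its non-targeting arrays with the comparisons of ATRA and of EZH2 KD above. Here 6 of 60 genes fell and 0 rose, where 18.4% of expressed genes were called lower, and the median difference was -0.11 beside -0.20 for expressed genes. Differences were below 0 in 39 of the 60 genes and above 0 in 21, up to 0.42. RPS13 was at 11.98, 12.11 and 12.76 with the non-targeting shRNA and 13.01, 12.94 and 12.87 in untransduced cells (-0.65, SE 0.14, adjusted p = 0.0035). RPS23, which lies at the decoding center, was at 9.89, 10.34 and 10.96 against 10.98, 10.93 and 11.10 (-0.61, SE 0.16, adjusted p = 0.014). RPS28 was at 12.47, 12.50 and 13.23 against 13.17, 13.38 and 13.34 (-0.56, SE 0.16, adjusted p = 0.024), and the other 2 probe sets of RPS28 fell by 0.50 and 0.51 in the fit over all probe sets. In each of these genes the first 2 non-targeting arrays were low and the third was near or within the untransduced range.

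RPS15 (11.03, 11.04 and 11.59 against 11.59, 11.76 and 11.66), RPS21 (7.93, 8.09 and 8.46 against 8.66, 8.41 and 8.61) and RPL7L1 (10.66, 10.54 and 11.53 against 11.50, 11.47 and 11.37) had the same pattern. Their differences were -0.445 (SE 0.13, adjusted p = 0.023), -0.40 (SE 0.10, adjusted p = 0.011) and -0.54 (SE 0.16, adjusted p = 0.029). The dimmer probe sets of RPS15 (-0.35, adjusted p = 0.20) and RPL7L1 (-0.13, adjusted p = 0.65) did not pass, and with the mean of all probe sets both calls were lost (-0.40, adjusted p = 0.060, and -0.34, adjusted p = 0.14). Of the 6 genes, 5 were among the 21 callable genes of the small subunit, where 18.4% of expressed genes were called lower. The other, RPL7L1, is a copy of RPL7 that acts in ribosome assembly. Small-subunit genes had a median difference of -0.18, near the -0.20 of expressed genes, and those of the large subunit and stalk -0.097.

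Non-targeting arrays 1 and 2 were low in the called genes but not in every member. RPS3, for example, stood at 13.91 and 13.89 there, against 13.59 on array 3 and 13.52 to 13.62 in untransduced cells. The 2 arrays had array medians of 5.56 and 5.56, against 5.36 for array 3 and 5.31 to 5.36 for the untransduced arrays. Their mean level over 192 small nucleolar RNA genes, many of which lie in introns of ribosomal protein genes, was 7.86 and 7.94, against 7.51 for array 3 and 7.47 to 7.57 for the untransduced arrays. Without the 6 arrays of highest median, non-targeting array 3 alone stood for its group, assumed to vary like the others, limma called 0 of the 60 genes, and RPS13 differed by -0.18, RPS23 by -0.040, RPS28 by -0.065 and RPL7L1 by 0.083. With the array median as a covariate it also called 0. Without non-targeting array 1 or array 2 there were 0 calls (RPS13 -0.50 and -0.57), without untransduced array 1 there was 1, and without non-targeting array 3 there were 15. The share of expressed genes called in these refits was not computed. Of the other 4 arrays of high median, 3 had the lowest RPS13 level of their group (shEZH2#1 array 1 at 12.47, shEZH2#2 array 2 at 12.28 and untransduced ATRA array 3 at 12.62), while non-targeting ATRA array 3, at 12.74, lay between the other 2 of its group. With ATRA, limma called 0 of 60 genes for the non-targeting shRNA against untransduced cells, where 0.991% of expressed genes were called, with 2 at an unadjusted p under 0.05 and 0 by the methods' t-test.

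**Figure D5:**
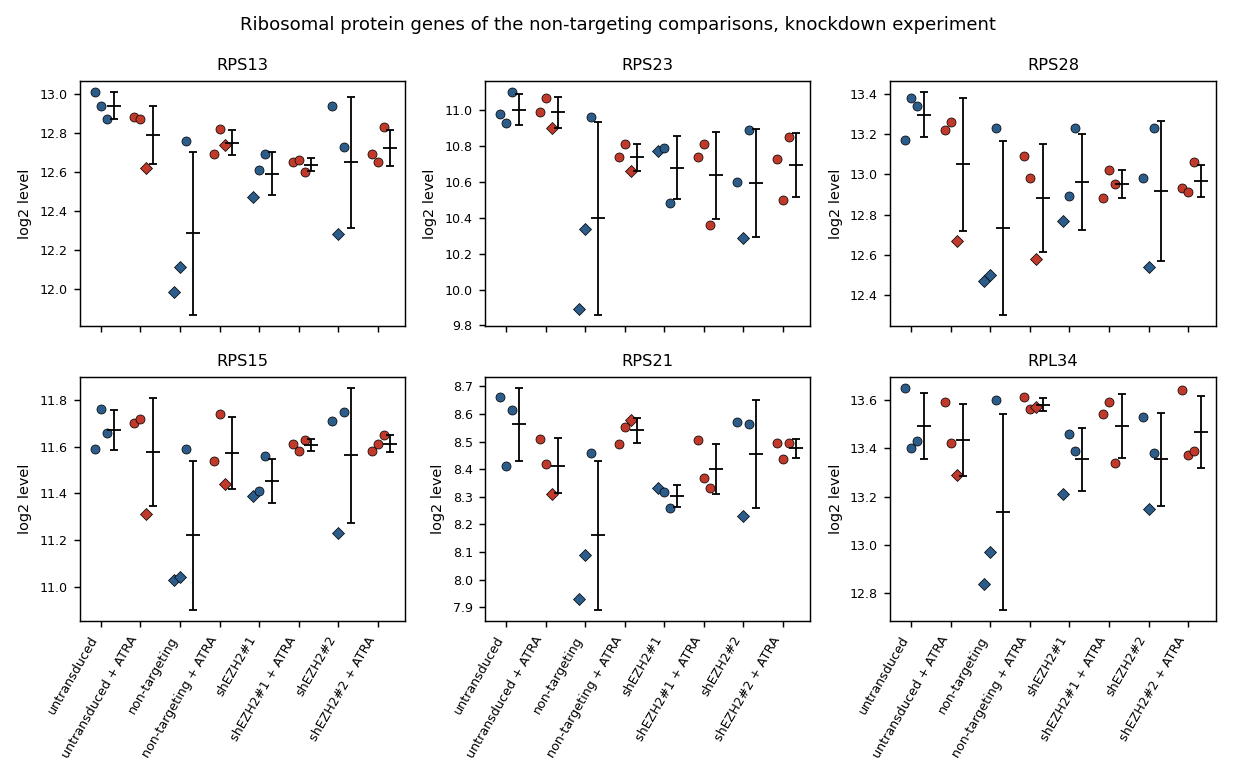
Log2 level of RPS13, RPS23, RPS28, RPS15, RPS21 and RPL34 on the 24 arrays of the knockdown experiment (blue without ATRA, red with ATRA; bars are mean ± SD of 3 arrays; diamonds are the 6 arrays with the highest array median; each panel has its own axis, which does not start at 0). Non-targeting arrays 1 and 2, both diamonds, are low in every panel, while array 3 lies near the untransduced arrays.

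A list of 8 genes known from disease or signalling or as part of the stalk had 0 calls in the 19 comparisons (0 also by the methods' t-test). It holds neither RPS24 nor RPL11 and was chosen with earlier results of these data known. The share of expressed genes without a call in all 19 was not computed. RPL5 had the narrowest range, with group means from 13.72 to 13.83 and differences between -0.079 and 0.078 in the 19 comparisons. RPS19 and RPS14, whose loss underlies Diamond-Blackfan anemia and the anemia of 5q deletion, had differences between -0.13 and 0.13 and between -0.24 and 0.29. RPS6, the target of S6 kinase, lay between -0.16 and 0.10, and RPS4X, encoded on the X chromosome, between -0.18 and 0.14. The stalk proteins RPLP1 and RPLP2, which recruit elongation factors, lay between -0.14 and 0.14 and between -0.28 and 0.17. RPL10, mutated in some T-cell leukemias, lay between -0.29 and 0.28. The lowest adjusted p among these 8 genes was 0.057, that of RPLP2. Outside the list, RPL11 passed on limma's adjusted p in 3 comparisons (lowest 0.0011) and was called in 0.

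Among the paralogs RPL22L1, a copy of RPL22 present at low level, had the largest difference with ATRA in untreated cells, although its mean of 6.67 put it below the line for a call. It was at 7.05, 7.05 and 6.76 in untreated cells and 6.32, 6.11 and 6.71 with ATRA (-0.58, SE 0.17, adjusted p = 0.031), and the groups did not overlap. With GSK-343 it was at 7.19, 7.39 and 6.91, and with GSK-343 and ATRA at 6.54, 6.42 and 6.77 (-0.59, SE 0.17, adjusted p = 0.031). In the other ATRA comparisons it did not pass: the difference was -0.56 in untransduced cells (SE 0.17, adjusted p = 0.12), -0.41 with shEZH2#2, -0.15 with HKMTI-1-005, -0.081 with shEZH2#1 and 0.24 with the non-targeting shRNA. It was also lower with the non-targeting shRNA than in untransduced cells (-0.66, SE 0.17, adjusted p = 0.013). RPL22, the gene it was copied from, had differences between -0.32 and 0.054 in the 19 comparisons and a lowest adjusted p of 0.23. RPS27L, RPL10L and RPL3L differed by -0.11, -0.035 and 0.039 with ATRA in the inhibitor experiment, with adjusted p of 0.72, 0.94 and 0.90, and RPL39L by -0.38 (SE 0.26, adjusted p = 0.49).

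Other mRNAs with a TOP tract code for elongation and initiation factors and a few further proteins, and 22 of 23 measured could be called. In the inhibitor experiment 2 of the 22 fell with ATRA and 0 rose, where 7.85% of expressed genes were called lower: EIF4A2, a helicase of the initiation complex (-0.60, SE 0.17, adjusted p = 0.022), and VIM, the intermediate filament vimentin (-2.45, SE 0.26, adjusted p = 1.784e-07). VIM fell in all 7 ATRA comparisons, with differences from -3.06 to -2.03, and was higher with EZH2 KD than with the non-targeting shRNA (0.81, adjusted p = 0.039) and than in untransduced cells (1.07, adjusted p = 0.024). The median of the 22 with ATRA in the inhibitor experiment was -0.13. The mitochondrial ribosomal protein genes, which belong to the ribosome of the mitochondrion, had 69 callable members. Of these, 6 fell and 0 rose with ATRA in the inhibitor experiment (median -0.18), beside the same 7.85% of expressed genes lower. With ATRA on GSK-343, 7 fell and 0 rose, beside 7.06% of expressed genes lower. With the non-targeting shRNA against untransduced cells 20 fell and 2 rose, beside 18.4% of expressed genes lower and 3.16% higher.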

How the data were processed

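The 42 arrays hold RNA levels of HL-60 cells in 14 groups of 3, assigned from the sample labels. The deposited values were log2 levels per probe set that the authors obtained by GC-RMA in Partek Genomics Suite, followed by its removal of batch and date effects (no software version is given in the sources used here). The log2 scale was inferred from the values (3.18 to 14.49). The batches are not named, so that none could be entered in a fit, and their removal can make arrays look more alike than they were.

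Of 33297 probe sets, 19460 carried 1 gene symbol, 1754 several and 12083 none. The brightest probe set stood for each of 18417 genes. Of the 64 ribosomal protein genes, 41 had 1 probe set and 23 several, and values of genes with pseudogenes or near-identical copies are uncertain. Arrays of 1 colour carry no counts, and 3 arrays a group limited the precision. No arrays were identical.

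All groups entered 1 model (limma 3.58.1 in R 4.3.3; 28 residual and 3.37 prior degrees of freedom), with Benjamini-Hochberg adjustment over 18417 genes. A call needed an adjusted p no higher than 0.05, at least a 1.3-fold change and a mean in the top 40%, the thresholds of the study's methods. The methods' t-test, the unpaired test that the study names as its default, was run on the same values. For its arrays the study describes false discovery rate testing over all conditions instead. Shares of expressed genes are those of the main limma fit. None was computed for the t-test or for refits with other settings or fewer arrays. There were 19 comparisons of groups and 4 interaction terms, of which the non-targeting minus untransduced term was added after the data were seen. The fits were tested on simulated data. Tables were handled in Python 3.11.15 with pandas 2.3.3. The members and lists were chosen with earlier results of these data known. Named genes were the called members, the paralogs, members with a role fixed in a list and called TOP mRNAs. Genes that passed on the adjusted p alone, and those named for their spread or as the largest difference of a comparison, were chosen after their values were seen.

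Same-numbered arrays were checked for shared deviations from their group means over 7367 genes. Every pair correlated above 0.1 for GSK-343 (0.433 to 0.475) and HKMTI-1-005 (0.202 to 0.366) against untreated cells, for ATRA with shEZH2#2 (0.16 to 0.638) and between the controls with ATRA (0.174 to 0.576). The number was taken to pair the samples there, which the labels do not state. Arrays of different number were not compared, so that pairing was not shown. Number 3 gave -0.0656 for HKMTI-1-005 against GSK-343 and -0.554 for ATRA against untreated cells. Alternatives were a replicate block, 1 fit per experiment, quantile normalization, centring, other filters and probe sets, the array median as a covariate and leaving out arrays.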

Additional observations from a re-analysis of the deposited data

Results flagged for a closer look

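A probe set shared by RPS3A and SNORD73A, a small nucleolar RNA in an RPS3A intron, was in none of the comparisons because it carries more than 1 symbol. It was higher by 1.71 (SE 0.44, adjusted p = 0.015 in limma over all probe sets) with the non-targeting shRNA than in untransduced cells, the control of that comparison. The probe set of RPS3A alone had differences between -0.30 and 0.11 in the 19 comparisons and was never called.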

How the results depend on the processing

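Numbers of called ribosomal protein genes were small, so that single arrays and settings moved them; without the expression filter and with shEZH2#2 alone none moved by over 1.5 times. Main counts were 2 (ATRA), 2 (GSK-343 + ATRA against GSK-343), 2 (non-targeting + ATRA against non-targeting), 1 (HKMTI-1-005), 6 (non-targeting against untransduced) and 0 elsewhere. The replicate block left 1 for non-targeting + ATRA, where same-numbered arrays did not correlate above 0.1, and 0 for HKMTI-1-005. It changed no other call count by over 1.5 times. With 1 fit per experiment there were 1 for ATRA, 0 for HKMTI-1-005, 0 for non-targeting + ATRA and 1 for non-targeting against untransduced. Quantile normalization gave 1 for ATRA, 1 for non-targeting + ATRA and 1 for GSK-343 + ATRA. Centring, which shifts all genes by -0.158 for non-targeting against untransduced, gave 15 there (all lower), 1 for ATRA, 0 for non-targeting + ATRA and 0 for HKMTI-1-005. The mean of all probe sets gave 1 for ATRA and 0 for HKMTI-1-005, and also ended the calls of RPL26L1 for GSK-343 + ATRA and of RPS15 and RPL7L1 for non-targeting against untransduced. The array median as a covariate gave 0 for non-targeting + ATRA, 1 for shEZH2#1 + ATRA, 1 for EZH2 KD + ATRA against non-targeting + ATRA and 0 for non-targeting against untransduced. Without a fold minimum there were 6 for ATRA, 5 for GSK-343 + ATRA, 1 for HKMTI-1-005 + ATRA, 1 for shEZH2#1 + ATRA, 3 for EZH2 KD + ATRA against non-targeting + ATRA, 1 against untransduced + ATRA and 11 for non-targeting against untransduced. The methods' t-test called 0 in all 19 comparisons, those with limma calls included, so that a 0 from it adds no support. Without the 6 arrays of highest median, which leaves 1 non-targeting array without ATRA, there were 0 for non-targeting + ATRA, 1 for shEZH2#2 + ATRA and 0 for non-targeting against untransduced, and shEZH2#1 alone gave 2 for EZH2 KD + ATRA against non-targeting + ATRA. Apart from the settings that remove arrays or the fold minimum, the cause was not tested. No share of expressed genes was computed for refits with other settings or fewer arrays. Their counts therefore do not show whether these genes moved more than others.

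Leaving out 1 array gave 0 to 4 calls for ATRA, 0 to 3 for GSK-343 + ATRA, 0 to 1 for HKMTI-1-005, 0 to 11 for non-targeting + ATRA, 0 to 15 for non-targeting against untransduced, 0 to 7 for EZH2 KD against non-targeting, 0 to 2 with ATRA, 0 to 1 for EZH2 KD + ATRA against untransduced + ATRA, 0 to 1 for shEZH2#1 + ATRA, 0 to 1 for the ATRA response of the inhibitor minus that of the knockdown experiment and 0 to 11 for the ATRA response of non-targeting minus that of untransduced cells. In the other comparisons 0 were called each time. RPL26L1 for HKMTI-1-005 against GSK-343, near 0, turned to 0.025 (quantile), 0.00315 (centring) and 0.046 (mean of probe sets), and ran from -0.076 to 0.074 without 1 array. Without the 6 arrays, RPL34 turned to -0.012 with non-targeting + ATRA and RPL7L1 to 0.083 for non-targeting against untransduced.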
